A study of Mus musculus with 24 samples.

Results

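The genes described are Kl, Vdr, Cyp27b1 and Cyp24a1, the Klotho and vitamin D axis of the kidney. They are the rows of the deposited expression table whose gene symbol equals 1 of these names, 4 of 14785 genes. Their RNA was measured by polyA sequencing in the kidneys of 24 male C57/BL6 mice in 6 groups of 4, labelled 8 weeks old. Sham animals had sham surgery. In the groups called UUO2 and UUO7 here, the ureter was ligated for 2 or 7 days, which is unilateral ureter obstruction and blocks the outflow of a kidney. In the R1W, R2W and R4W groups the ureter was reimplanted after 7 days of obstruction and the animals recovered for 1, 2 or 4 weeks. The 4 sequenced animals were picked from 10 per group, and how they were picked and when the sham animals were culled are not given in the sources used here. R4W replicate 2 is a 4-week animal by its title and a 2-week animal by its treatment label; it was grouped by title. The kidney is labelled as whole tissue, and markers of proximal tubule, distal tubule, thick ascending limb, collecting duct and podocytes were present in all 6 groups.

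Kl encodes Klotho, a membrane protein that joins fibroblast growth factor receptors to form the receptor for FGF23, a hormone from bone that makes the kidney excrete phosphate. FGF23 and parathyroid hormone also set active vitamin D through a pair of kidney enzymes: Cyp27b1 makes active vitamin D and Cyp24a1 breaks it down. Active vitamin D binds Vdr, a nuclear receptor that pairs with retinoid X receptors and acts on calcium and phosphate transport genes; Cyp24a1 is a well-known target of Vdr. Klotho is made mainly in the distal tubule, with some in the proximal tubule, and Cyp27b1 is known mainly from the proximal tubule, although macrophages can express it too.

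The promoters of 3 of the members are shown because the vitamin D receptor binds DNA at short paired motifs. Cyp24a1 had no match among the promoters used. Whether promoter letters go with the direction of change was not tested. Each is the 250 bases before the RefSeq start on build GRCm38.p6, 5′ to 3′ on the strand of the gene. Capitals mark matches to the receptor's 6-base motif on both strands, the CCAAT box on both strands, the GC box, spelled GGGCGG, on both strands, and the TATA box on the gene strand. The receptor's motif was searched as its consensus AGGTCA, as the variant form AGTTCA, as the variant form GGGTCA and as the variant form GGTTCA. The TATA box was searched as TATAAA and in the other spelling TATATA. The windows are chr5:150952357-150952606 for Kl on the plus strand, chr10:127047996-127048245 for Cyp27b1 on the plus strand and chr15:97908297-97908546 for Vdr on the minus strand. The Vdr window lies inside the annotated gene, and 14 of its bases fall in an exon of another Vdr transcript.
Kl: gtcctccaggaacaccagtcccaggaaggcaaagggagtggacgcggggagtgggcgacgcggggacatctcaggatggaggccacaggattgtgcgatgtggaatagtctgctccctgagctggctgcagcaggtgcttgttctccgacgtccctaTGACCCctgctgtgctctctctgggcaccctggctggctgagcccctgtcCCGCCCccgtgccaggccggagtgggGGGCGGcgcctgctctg
Cyp27b1: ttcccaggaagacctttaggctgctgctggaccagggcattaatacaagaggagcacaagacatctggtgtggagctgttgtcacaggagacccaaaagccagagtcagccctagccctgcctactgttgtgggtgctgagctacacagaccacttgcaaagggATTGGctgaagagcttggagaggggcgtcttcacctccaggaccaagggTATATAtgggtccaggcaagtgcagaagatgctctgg
Vdr: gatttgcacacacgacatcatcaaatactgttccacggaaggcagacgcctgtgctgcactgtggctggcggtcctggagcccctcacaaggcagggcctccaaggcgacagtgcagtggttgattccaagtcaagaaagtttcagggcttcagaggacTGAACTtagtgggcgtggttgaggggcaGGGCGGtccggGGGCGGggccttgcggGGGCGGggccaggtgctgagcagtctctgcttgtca
Kl and Vdr had 66.8% and 61.2% G or C and no TATA or CCAAT box, with 2 GC boxes in Kl and 3 in Vdr. Cyp27b1 had 54.4% G or C, a TATA box 37 to 32 bases before its start and a CCAAT box, and no GC box. The median over 32851 RefSeq promoters was 52.4%; 11.5% of them held the TATA box, 33.8% the CCAAT box and 32.7% the GC box. A single receptor motif stood 93 to 88 bases before the start of Kl and 91 to 86 bases before that of Vdr, and Cyp27b1 had none; 38.6% of all promoters held at least 1. A pair of these motifs in the same orientation with 3 bases between them, the DR3 arrangement the receptor is known for, was in none of these 3 windows and in 0.0396% of all promoters. These matches describe letters in the windows and are not binding sites.

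Expression is given in FPKM, fragments scaled to the length of the transcript and the depth of the library. The unit was inferred from the values, and it lets levels of different genes be compared per length. Log2 fold changes were computed from log2(FPKM + 1) in limma, with its standard error (SE). A change was called when its p, adjusted by Benjamini-Hochberg over all 14785 genes, was under 0.05. The 4 libraries of a group are different mice by their titles. Whole-read steps in low values put the depth of 20 libraries at about 25100000 to 35300000 fragments. The 4 UUO2 libraries had no such steps, so their depth is unknown, and a library difference cannot be told apart from 2 days of obstruction in any comparison with UUO2. Mitochondrial transcripts took 14.0% to 14.6% of summed FPKM in sham and 5.42% to 6.37% in UUO7. Over all genes the median log2 fold change against sham was 0.09 in UUO2 and 0.42 in UUO7, then 0.37, 0.32 and 0.30 at 1, 2 and 4 weeks after reversal, so the members' changes against sham were also computed after rescaling each library by its median ratio.

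Kl fell, Vdr fell, Cyp24a1 fell and Cyp27b1 rose against sham in each of the 5 groups, so 3 members were called lower and 1 higher each time. The share of all genes called lower against sham was 17.0% in UUO2, 17.8% in UUO7, and 14.7%, 12.9% and 11.6% at 1, 2 and 4 weeks after reversal. The share called higher was 32.3%, 60.1%, 59.4%, 56.1% and 54.8% in the same order, so a single called rise among 4 genes is below the background share. After rescaling, 36.5% of all genes were called higher and 36.5% lower in UUO7, 25.3% and 25.5% in UUO2, 33.7% and 34.6% at 1 week, 31.1% and 32.5% at 2 weeks, and 28.9% and 31.1% at 4 weeks. The 5 comparisons share the sham libraries.

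**Figure D1:**
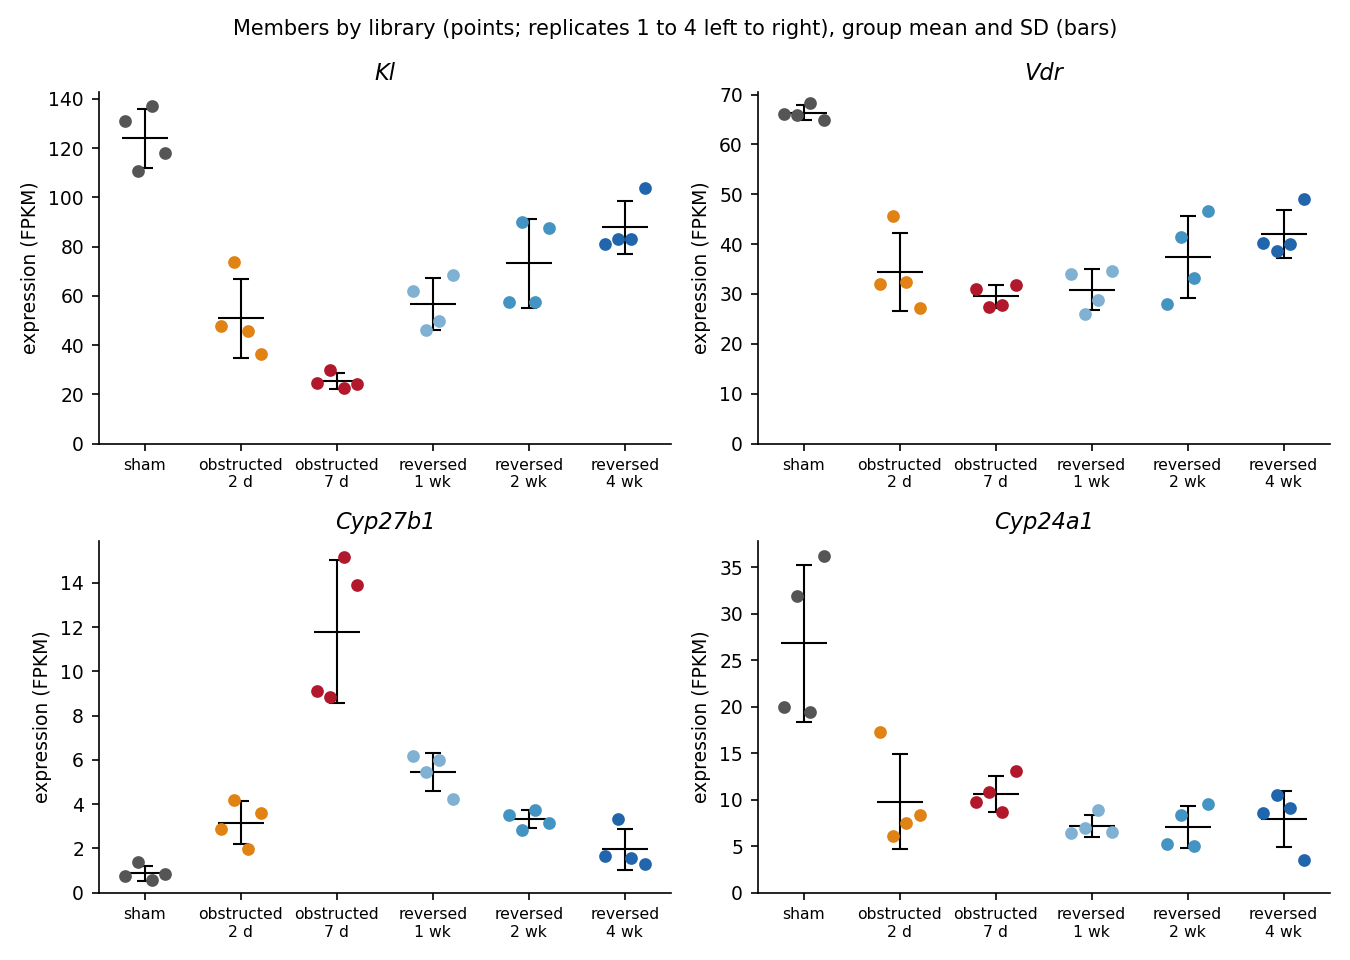
Expression in FPKM (y axes, starting at 0) of the 4 members in each library (points, replicates 1 to 4 from left to right) by group, with the group mean and SD over 4 animals as black bars. Kl is lowest and Cyp27b1 highest after 7 days of obstruction, while Cyp24a1 stays at 3.55 to 10.55 FPKM in the reversed groups, below all 4 sham libraries.

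Kl, the FGF23 co-receptor (ENSMUSG00000058488.7, chromosome 5, 150952607 to 150993817, plus strand, 5 exons), was at 131, 111, 137 and 118 FPKM in sham replicates 1 to 4. After 2 days of obstruction it was at 47.7, 73.8, 45.7 and 36.5 FPKM, and after 7 days at 24.65, 29.97, 22.46 and 24.27 FPKM. Every obstructed library lay below every sham library, and every UUO7 library lay below every UUO2 library. Mean Kl was 124 ± 12.0 FPKM (SD, n = 4) in the sham group, 50.9 ± 16.0 in UUO2 and 25.3 ± 3.23 in UUO7, which is 20.4% of sham. The log2 fold change was -1.31 (SE 0.18, limma adjusted p = 6.28e-06) in UUO2 and -2.25 (SE 0.18, adjusted p = 9.42e-10) in UUO7, and -2.73 in UUO7 after rescaling. From UUO2 to UUO7 Kl fell by 0.94 (limma adjusted p = 1.30e-04).

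After reversal Kl rose again. Its values were 62.2, 46.3, 49.7 and 68.6 FPKM at 1 week, 57.4, 90.1, 57.6 and 87.7 at 2 weeks, and 81.3, 83.2, 83.1 and 103.8 at 4 weeks. All 12 libraries of the reversed groups lay above all UUO7 libraries and below all sham libraries, while neighbouring weeks overlapped at 1 and 2 weeks and at 2 and 4 weeks. The means were 56.7 ± 10.5, 73.2 ± 18.2 and 87.8 ± 10.7 FPKM (SD, n = 4), or 45.7%, 59.0% and 70.8% of sham. Against UUO7 the log2 fold change was 1.12 at 1 week (limma adjusted p = 8.85e-04) and 1.75 at 4 weeks (adjusted p = 1.13e-06). Against sham it was -1.13 at 1 week (adjusted p = 1.25e-05), -0.78 at 2 weeks (adjusted p = 7.63e-04) and -0.50 at 4 weeks (adjusted p = 0.0212). The 4-week call against sham was lost without sham replicate 3 (adjusted p = 0.0583) or R4W replicate 1 (adjusted p = 0.0511), and after rescaling the 4-week value was -0.87. Between 1 and 4 weeks Kl rose by 0.63 (adjusted p = 0.0221), a call lost in a fit of those 2 groups alone (adjusted p = 0.0580) and without R1W replicate 2, R1W replicate 3 or R4W replicate 4.

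Ordered by mean, Kl went from sham through R4W, R2W, R1W and UUO2 to UUO7. R4W and R2W, R2W and R1W, and R1W and UUO2 overlapped in their libraries; sham and R4W, and UUO2 and UUO7, did not.

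Vdr, the vitamin D receptor (ENSMUSG00000022479.15, chromosome 15, 97854425 to 97910630, minus strand, up to 10 exons), was at 66.1, 66.0, 68.4 and 65.0 FPKM in sham. On the log2 scale its sham values were the tightest of the 4 genes (SD 0.031). In UUO2 it was at 32.1, 45.7, 32.5 and 27.3 FPKM, and in UUO7 at 31.0, 27.4, 27.8 and 31.8 FPKM. All 8 obstructed libraries lay below sham, and UUO2 and UUO7 overlapped. The mean fell from 66.4 ± 1.46 FPKM (SD, n = 4) to 34.4 ± 7.90 and 29.5 ± 2.23. The log2 fold change was -0.95 (SE 0.14, limma adjusted p = 1.39e-05) in UUO2 and -1.15 (SE 0.14, adjusted p = 2.81e-07) in UUO7, or -1.09 and -1.62 after rescaling. Unlike the call for Kl, the step from UUO2 to UUO7 was not called for Vdr (log2 fold change -0.19, adjusted p = 0.240); it was -0.53 with an adjusted p of 0.00856 after rescaling, and -0.58 with an adjusted p of 0.00175 in the authors' deposited table. Whether the steps of Kl and Vdr differ was not tested.

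Vdr was near its UUO7 level at 1 week after reversal and above it at 4 weeks. At 1 week it was at 34.0, 26.1, 28.9 and 34.6 FPKM, at 2 weeks at 28.1, 41.5, 33.3 and 46.7, and at 4 weeks at 40.25, 38.59, 40.02 and 49.02. The 1-week libraries overlapped UUO7, and the 4-week libraries lay above all UUO7 and all R1W libraries and below all sham libraries. The means were 30.9 ± 4.11, 37.4 ± 8.28 and 42.0 ± 4.76 FPKM (SD, n = 4), the last being 63.2% of sham. Against UUO7 the log2 fold change was 0.06 at 1 week (limma adjusted p = 0.822) and 0.49 at 4 weeks (adjusted p = 0.00742). Against sham it was -1.09 at 1 week (adjusted p = 9.14e-07), -0.84 at 2 weeks (adjusted p = 3.08e-05) and -0.65 at 4 weeks (adjusted p = 4.62e-04). After rescaling these were -1.53, -1.22 and -1.03, each still called. The rise of 0.43 from R1W to R4W (adjusted p = 0.0386) was lost in the fit of those 2 groups alone (adjusted p = 0.0648) and without R1W replicate 2 or 3 or R4W replicate 1, 3 or 4, with values of 0.36 to 0.45.

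Cyp27b1, the enzyme that makes active vitamin D (ENSMUSG00000006724.12, chromosome 10, 127048250 to 127053006, plus strand, 9 exons), was the member of lowest level in sham, at 0.76, 1.37, 0.58 and 0.85 FPKM. These values stand for about 49 to 110 fragments a library. In UUO2 it was at 2.90, 4.19, 1.98 and 3.62 FPKM, and in UUO7 at 9.13, 8.86, 15.15 and 13.92 FPKM. The sham, UUO2 and UUO7 libraries did not overlap. Mean Cyp27b1 was 0.890 ± 0.339 FPKM (SD, n = 4) in the sham group, 3.17 ± 0.954 in UUO2 and 11.8 ± 3.24 in UUO7, which is 13.2 times sham. Adding 1 before the log makes the change of so low a gene look smaller, and on that scale the rise was 1.13 in UUO2 (SE 0.20, limma adjusted p = 1.14e-04) and 2.74 in UUO7 (SE 0.20, adjusted p = 3.35e-10). After rescaling the rises were 1.11 and 2.42. With a pseudocount of 0.1 the UUO7 value was 3.60, and with 10 it was 0.99; the authors' deposited table gives 3.24. From UUO2 to UUO7 Cyp27b1 rose by 1.61 (limma adjusted p = 8.42e-07).

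Cyp27b1 then fell week by week in its group means. It was at 6.16, 5.45, 6.00 and 4.24 FPKM at 1 week, 3.53, 2.83, 3.74 and 3.17 at 2 weeks, and 1.64, 3.35, 1.55 and 1.30 at 4 weeks. The means were 5.46 ± 0.870, 3.32 ± 0.401 and 1.96 ± 0.938 FPKM (SD, n = 4). The 1-week libraries lay below all UUO7 and above all 2-week libraries, and at 4 weeks R4W replicate 2 lay inside the 2-week range while replicate 4 lay below the highest sham library. Against UUO7 the log2 fold change was -0.96 at 1 week (limma adjusted p = 0.00484) and -2.12 at 4 weeks (adjusted p = 5.22e-07), and it was -1.16 from 1 to 4 weeks (adjusted p = 0.00286). Against sham it was 1.78 at 1 week (adjusted p = 1.69e-07), 1.20 at 2 weeks (adjusted p = 2.96e-05) and 0.62 at 4 weeks (adjusted p = 0.0115). The 4-week call against sham rests on R4W replicate 2, the library with conflicting labels: without it the value was 0.42 (adjusted p = 0.0655), and after rescaling it was also 0.42 (adjusted p = 0.0678). In the authors' deposited table the same comparison has a log2 fold change of 0.76 and an adjusted p of 0.0536.

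Cyp24a1, the enzyme that breaks active vitamin D down (ENSMUSG00000038567.5, chromosome 2, 170482708 to 170497145, minus strand, 12 exons), was at 19.94, 31.88, 19.38 and 36.15 FPKM in sham. In UUO2 it was at 17.31, 6.05, 7.46 and 8.39 FPKM, and in UUO7 at 9.71, 10.82, 8.67 and 13.14 FPKM. UUO2 replicate 1 came close to sham, but no obstructed library reached the sham range. The mean fell from 26.8 ± 8.47 FPKM (SD, n = 4) to 9.80 ± 5.10 and 10.6 ± 1.92. The log2 fold change was -1.42 in UUO2 (SE 0.29, limma adjusted p = 4.67e-04) and -1.23 in UUO7 (SE 0.29, adjusted p = 7.26e-04), or -1.56 and -1.69 after rescaling. The step from UUO2 to UUO7 was not called (0.19, adjusted p = 0.586), and it was -0.13 after rescaling.

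Cyp24a1 showed no called recovery up to 4 weeks. Values were 6.37, 6.99, 8.88 and 6.51 FPKM at 1 week, 5.23, 8.41, 5.02 and 9.56 at 2 weeks, and 8.53, 10.55, 9.11 and 3.55 at 4 weeks. All 12 reversed libraries lay below all sham libraries, and each reversed group overlapped the next. Means were 7.19 ± 1.16, 7.05 ± 2.28 and 7.93 ± 3.04 FPKM (SD, n = 4), or 26.8%, 26.3% and 29.6% of sham. Against sham the log2 fold change was -1.72 at 1 week (limma adjusted p = 2.43e-05), -1.78 at 2 weeks (adjusted p = 2.26e-05) and -1.67 at 4 weeks (adjusted p = 5.65e-05), and rescaling gave -2.14, -2.15 and -2.03. Against UUO7 it was -0.50 at 1 week (adjusted p = 0.264) and -0.44 at 4 weeks (adjusted p = 0.221), and from 1 to 4 weeks it was 0.05 (adjusted p = 0.918). The 1-week difference from UUO7 was called in a fit of those 2 groups (adjusted p = 0.0458) and in the authors' deposited table (-0.53, adjusted p = 0.00399). The gene shares 718 bases with Pfdn4 on the opposite strand, whether the counting used strand is not given in the sources used here, and Pfdn4 was called higher than sham in all 5 groups, with log2 fold changes of 0.37 to 0.96. After rescaling it was not called in R2W (0.24, adjusted p = 0.0702) or R4W (0.02, adjusted p = 0.917).

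Between the later groups the members' calls read as follows against the background. From UUO2 to UUO7, 1 member was called higher and 1 lower, beside 52.0% of all genes higher and 14.7% lower. After rescaling 1 member was called higher and 2 lower, Vdr being added, beside 30.0% and 31.9% of all genes. In the comparisons that follow, rescaling left the members' calls as they were. From UUO7 to R1W it was 1 higher and 1 lower, beside 6.47% and 8.04% of all genes (7.26% and 7.14% after rescaling). From UUO7 to R4W it was 2 higher and 1 lower, beside 17.6% and 30.8% of all genes (25.1% and 23.2% after rescaling). From R1W to R4W it was 2 higher and 1 lower, beside 5.06% and 14.1% of all genes (8.67% and 8.60% after rescaling). The rise of Kl and the fall of Cyp27b1 were called in all 3 of the comparisons among UUO7, R1W and R4W, although the rise of Kl from R1W to R4W was lost under the settings named above.

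**Figure D2:**
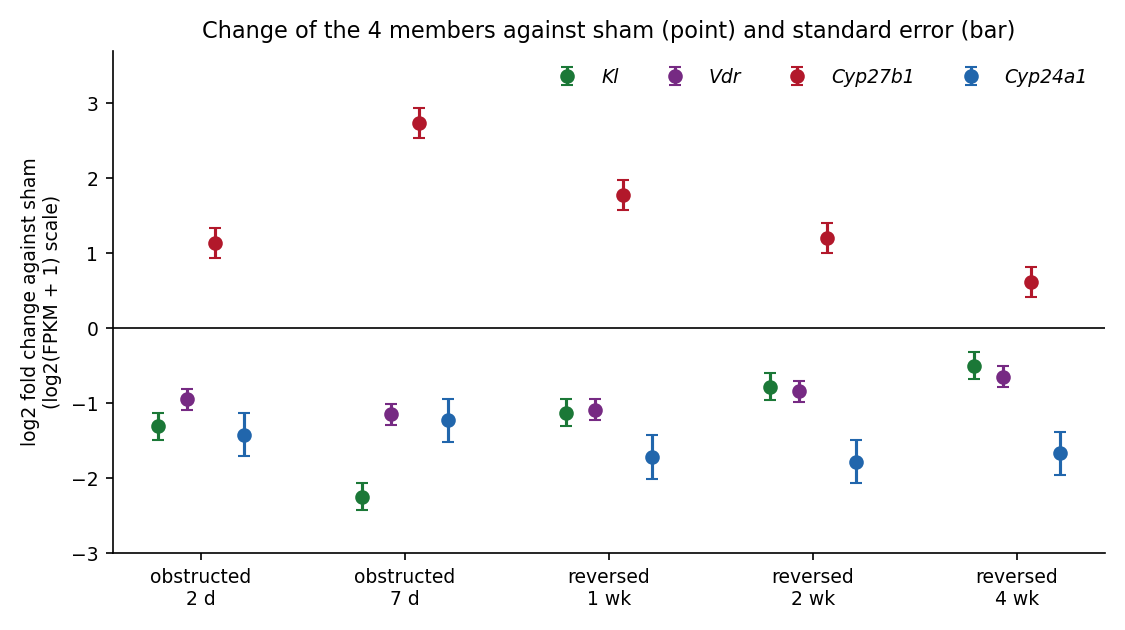
Log2 fold change against sham on the log2(FPKM + 1) scale (y axis) of Kl, Vdr, Cyp27b1 and Cyp24a1 in the 5 groups (x axis), with the limma SE as bars. Kl and Cyp27b1 peak at 7 days, at -2.25 and 2.74, and Cyp24a1 stays between -1.78 and -1.23.

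The level of the breakdown enzyme relative to the synthesis enzyme is given as a description, with no test. In sham the ratio of Cyp24a1 to Cyp27b1 FPKM was 26.2, 23.3, 33.4 and 42.5 in replicates 1 to 4. It had a median of 3.04 (1.44 to 5.97) in UUO2 and of 1.00 (0.572 to 1.22) in UUO7. So RNA of the breakdown enzyme exceeded that of the synthesis enzyme in every sham library and was about level with it at 7 days. After reversal the median was 1.38 (1.03 to 1.54) at 1 week, 2.23 (1.34 to 3.02) at 2 weeks and 4.18 (2.73 to 5.88) at 4 weeks. The 4-week ratios lay above all UUO7 and R1W ratios and below all sham ratios.

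**Figure D3:**
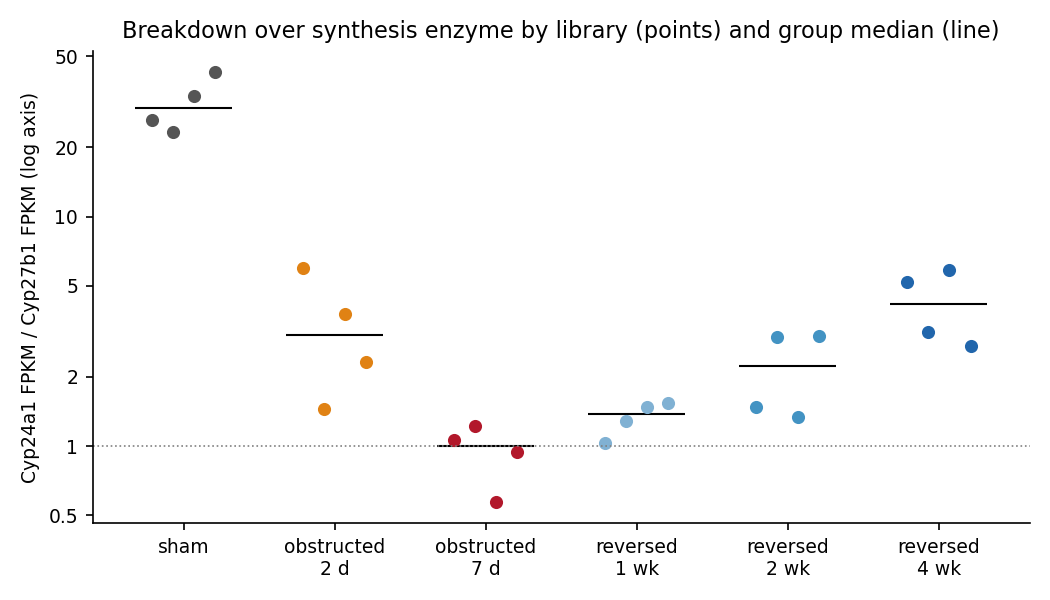
Ratio of Cyp24a1 FPKM to Cyp27b1 FPKM (y axis, log scale) in each library (points) by group, with the group median as a line and a dotted line at 1. The sham libraries sit between 23.3 and 42.5 and the UUO7 libraries between 0.572 and 1.22.

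The levels of the other genes of the pathway come from lists of known genes, described by counts and the median log2 fold change. Of 9 genes of FGF23 and Klotho signalling and Klotho shedding, 4 rose and 3 fell in UUO7 against sham, with a median of 0.21 beside 0.42 for all genes, of which 60.1% were called higher and 17.8% lower. After rescaling 2 were called higher and 4 lower, with a median of -0.22, beside 36.5% of all genes each way. Fgfr3 fell from 19.5 (18.0 to 21.2) FPKM in sham to 9.64 (7.20 to 11.2) in UUO7, a log2 fold change of -0.96 (limma adjusted p = 7.35e-07), and Fgfr4 fell by 0.35 (adjusted p = 0.00256), or by 0.81 after rescaling. Fgfr1, the receptor best known as Klotho's partner in FGF23 signalling, rose by 0.42 (adjusted p = 1.26e-05), equal to the shift of the median gene, and was at -0.05 after rescaling. Fgfr2 rose by 0.97 (adjusted p = 0.00368), a call lost after rescaling (0.52, adjusted p = 0.0753). Adam10 and Adam17, proteases known to cut Klotho from the cell surface, rose by 0.95 and 0.69 in UUO7 and by 0.65 and 0.83 in R4W, and both were also called after rescaling, at 0.49 and 0.26 in UUO7 and 0.30 and 0.50 in R4W. In R4W 6 of the 9 genes were called higher and 2 lower, beside 54.8% and 11.6% of all genes, and after rescaling 2 and 3, beside 28.9% and 31.1%; nothing particular to the list is read from these counts.

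Of 10 genes of phosphate transport, 6 were called lower and 2 higher in UUO7, with a median of -0.48, and 6 lower and 1 higher in R4W, with a median of -0.35. In those groups 17.8% and 11.6% of all genes were called lower. After rescaling 7 were lower and 1 higher in both, with medians of -0.94 and -0.72, beside 36.5% and 31.1% of all genes called lower. Slc34a1, the main phosphate carrier of the proximal tubule, went from 2764 (2548 to 2992) FPKM in sham to 651 (575 to 715) at 7 days and 1610 (1271 to 1842) at 4 weeks. The change was -2.09 (limma adjusted p = 1.70e-08) in UUO7 and -0.79 (adjusted p = 0.00263) in R4W. Slc34a3, the other proximal carrier of this family, fell by 2.27 and was still lower by 1.00 on the log2 scale in R4W (adjusted p = 5.23e-05). Pdzk1, a scaffold that binds such carriers, fell by 1.57 in UUO7 and by 0.83 in R4W. Slc20a1, a more widespread phosphate carrier, rose by 0.99 in UUO7 (adjusted p = 3.19e-04), or by 0.52 after rescaling. Pth1r, the parathyroid hormone receptor, fell by 0.42 in UUO7 and by 0.58 in R4W (adjusted p = 3.34e-04), or by 0.90 and 0.95 after rescaling.

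Of 10 genes of vitamin D uptake and other hydroxylases, 6 fell and 2 rose in both UUO7 and R4W, with medians of -0.46 and -0.42. After rescaling 8 were lower and 1 higher in UUO7 and 8 lower and none higher in R4W, with medians of -0.94 and -0.79; the shares of all genes called lower are those given for phosphate transport. Cyp27a1, a vitamin D hydroxylase of mitochondria and 1 of the rises, was at 0.52 in UUO7 and at 0.05 after rescaling, not called. Lrp2 (megalin) and Cubn (cubilin) take up filtered vitamin D with its binding protein in the proximal tubule. Lrp2 fell from 113 (96.3 to 127) FPKM in sham to 21.2 (17.4 to 24.1) in UUO7, by 2.36 on the log2 scale (limma adjusted p = 3.04e-09), and was at 53.4 (43.8 to 63.6) in R4W. Cubn fell by 1.87 in UUO7 (adjusted p = 3.99e-09) and by 0.87 in R4W. Gc, the vitamin D binding protein itself, went the other way, from 8.54 (7.23 to 10.4) FPKM in sham to 103 (93.0 to 109) after 2 days and 135 (118 to 156) after 7 days. It rose by 3.84 on the log2 scale (adjusted p = 8.28e-12) in UUO7 and by 0.79 in R4W, where the call was lost after rescaling (0.44, adjusted p = 0.0513). Like Cyp27b1, Gc was highest in UUO7 and lower in each later group mean, at 38.9, 24.3 and 16.1 FPKM.

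Of 13 partners and coregulators of Vdr, 6 rose and 4 fell in UUO7 with a median of 0.05, beside 60.1% of all genes called higher and 17.8% lower. After rescaling the count turned to 1 higher and 8 lower, beside 36.5% of all genes each way. Rxra, the retinoid X receptor that pairs with Vdr, was at 26.2 (24.2 to 27.0) FPKM in sham and 20.4 (19.3 to 20.8) in UUO7, a fall of 0.34 on the log2 scale (limma adjusted p = 1.42e-05), or of 0.81 after rescaling. In R4W its difference from sham was -0.09 (adjusted p = 0.154), and it was -0.46 and called after rescaling. Baz1b, a subunit of a chromatin remodelling complex, rose by 0.66 in UUO7 and by 0.64 in R4W, or by 0.21 and 0.29 after rescaling, and Ncoa1, a coactivator, fell by 0.62 in UUO7, or by 1.02 after rescaling.

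Of 12 genes of calcium handling, 7 rose and 4 fell in UUO7 with a median of 0.45, and after rescaling 4 rose and 4 fell. With 60.1% of all genes called higher, 17.8% lower and a median of 0.42, or 36.5% called each way after rescaling, the rises are near the background. Calb1 and S100g, calcium-binding proteins that carry calcium through the cell, fell: Calb1 from 88.3 (81.6 to 93.1) FPKM in sham to 9.24 ± 1.35 (SD, n = 4) in UUO7 and S100g from 1240 (1154 to 1399) to 192 (168 to 228). Their log2 fold changes were -3.13 (limma adjusted p = 5.12e-09) and -2.69 (adjusted p = 2.53e-11). Calb1 was back at 95.0 (84.1 to 105) FPKM in R4W, a difference from sham of 0.10 (adjusted p = 0.778) that was -0.28 after rescaling, while S100g was still called lower in R4W (-0.48, adjusted p = 0.0117), at -0.86 after rescaling. The entry channels rose in UUO7: Trpv5 by 1.49 (adjusted p = 1.69e-05), from 3.74 to 12.5 FPKM, and Trpv6 by 2.85 (adjusted p = 1.66e-09), from 0.772 to 11.6 FPKM. Casr, the calcium-sensing receptor, fell by 1.69, and Cldn14, a tight-junction protein that limits calcium reabsorption, rose by 1.93 from a sham mean of 0.0650 FPKM.

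Of 10 genes known to act on Cyp27b1 or Cyp24a1, 8 rose and 2 fell in UUO7 with a median of 1.58, beside 60.1% of all genes called higher and a median of 0.42; after rescaling 6 were higher and 2 lower, with a median of 1.31 and 36.5% of all genes called higher. Cebpb, a transcription factor reported to induce Cyp27b1, went from 12.5 (9.34 to 16.2) FPKM to 71.8 (67.7 to 77.9), a rise of 2.47 (limma adjusted p = 1.81e-07). Its rise of 0.84 in R4W (adjusted p = 0.0174) was lost after rescaling and without sham replicate 3 or 4 or R4W replicate 1 or 2. Tgfb1 and Nfkb1, of the fibrosis and inflammation pathways, rose by 2.86 and 1.92 in UUO7 and by 1.84 and 1.43 in R4W. Of 14 genes reported to respond to Vdr, 10 rose and 4 fell in UUO7, with a median of 1.31, and 8 rose and 3 fell in R4W, with a median of 0.54, where 60.1% and 54.8% of all genes were called higher. After rescaling the counts were 9 and 4 in UUO7 and 6 and 3 in R4W, where 36.5% and 28.9% of all genes were called higher. Nothing particular to this list is read from these counts. The rises were led by Spp1 (osteopontin, 5.12), Cd14 (a receptor of innate immunity, 4.51) and Cdkn1a (a cell cycle inhibitor, 3.22), and the falls by Calb1, S100g and Slc34a3. Calb1, S100g, Trpv5 and Trpv6 stand in both this list and the calcium list.

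**Figure D4:**
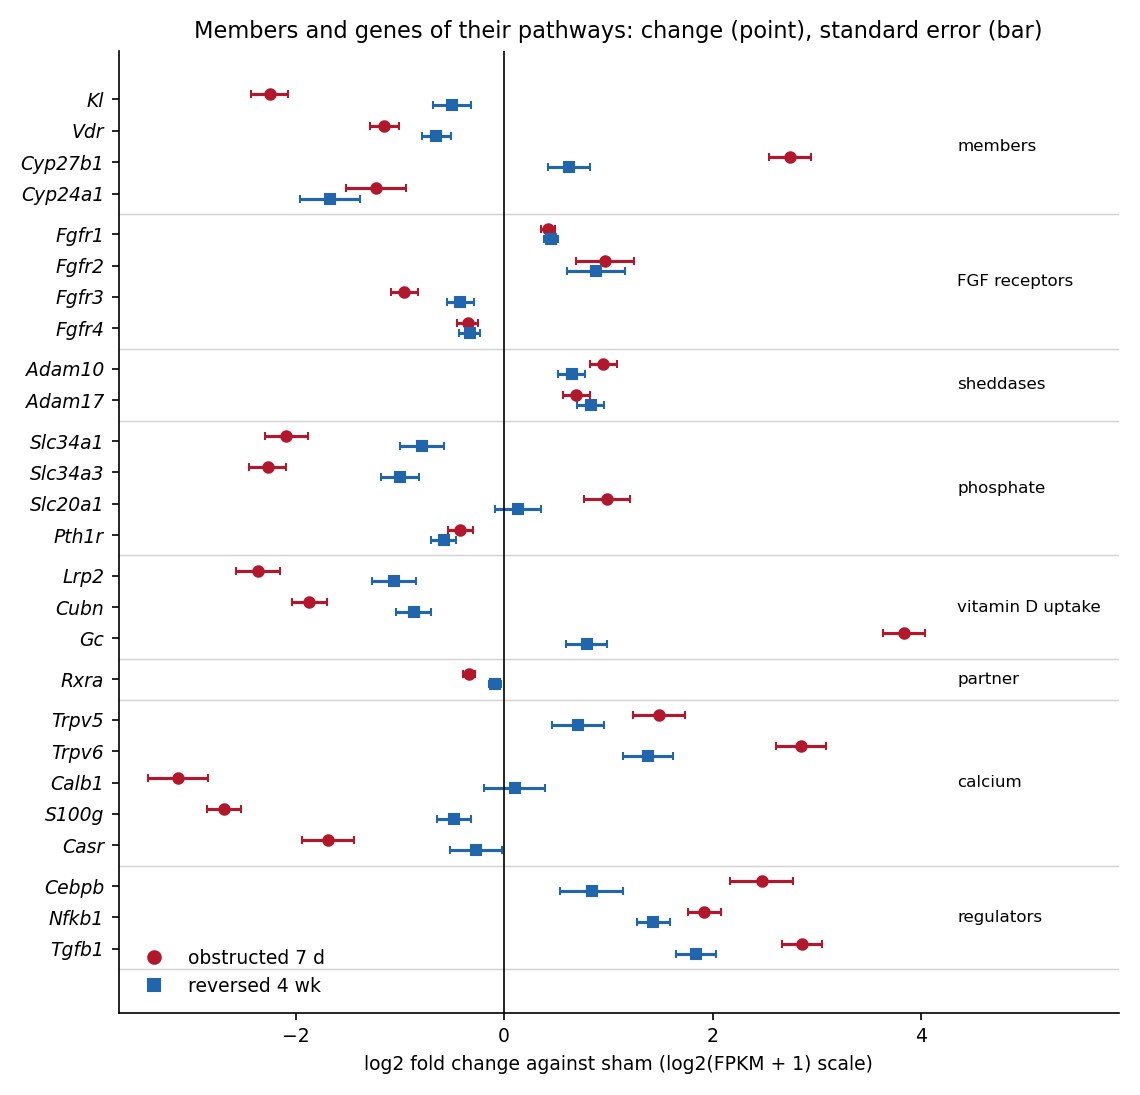
Log2 fold change against sham on the log2(FPKM + 1) scale (x axis) of the members and 22 genes of their pathways, in UUO7 (circles) and R4W (squares), with the limma SE as bars. Lrp2, Slc34a1 and Slc34a3 lie left of 0 at both times, while Calb1 lies at -3.13 in UUO7 and 0.10 in R4W.

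In bulk kidney RNA, fewer cells of a type and less RNA per cell cannot be told apart, and markers of the cells that express the members changed too, the proximal list in UUO7 and R4W and the distal list by most calls in UUO7 but by few in R4W. Of 12 proximal tubule markers, 11 were called lower and 1 higher in UUO7, and 8 lower and none higher in R4W (median -0.80). Their summed level was 3731 to 4298 FPKM in sham, 1289 to 1653 in UUO7 and 2214 to 2685 in R4W. Among all genes 17.8% were called lower and 60.1% higher in UUO7, and 11.6% and 54.8% in R4W. After rescaling 11 proximal markers were lower and 1 higher in UUO7, and 10 and 0 in R4W. The shares of all genes were then 36.5% each way in UUO7, and 31.1% lower and 28.9% higher in R4W. Of 12 distal convoluted and connecting tubule markers, 10 were lower and 2 higher in UUO7, and 10 and 1 after rescaling. Their sums were 3211 to 3383 FPKM in sham, 373 to 473 in UUO7 and 1918 to 2796 in R4W. In R4W 2 distal markers were called lower, 2 higher and 8 not called, with a median of 0.00, and after rescaling 4 lower and 1 higher, with a median of -0.37. No marker of either list was at 0 throughout a group. In UUO2 6 proximal markers were lower and 2 higher, and 11 distal markers were lower and 1 higher. Of 10 macrophage markers 8 were higher and 1 lower there, beside 32.3% of all genes higher and 17.0% lower. After rescaling only the proximal count changed, to 6 lower and 1 higher, beside 25.3% of all genes higher and 25.5% lower. The distal sum in UUO2 was 435 to 1272 FPKM and the proximal sum 2339 to 2852. All 10 macrophage markers rose in UUO7, and their sum went from 45.0 to 72.0 FPKM in sham to 882 to 991; in R4W it was 409 to 823. From UUO7 to R4W 2 of the 10 macrophage markers were called lower, beside 30.8% of all genes. After rescaling it was also 2, beside 23.2% of all genes. All 6 fibroblast markers rose in UUO7 and in R4W. After rescaling all 10 macrophage and all 6 fibroblast markers were still called higher in both groups. The part of these markers in the members' changes was not tested beyond the comparison that follows.

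Kl was also set against its segments, as log2(Kl + 1) minus the mean log2 value of a marker list in the same library. Relative to the proximal list Kl was lower than in sham by 0.99 in UUO2 and by 0.76 in UUO7, with no overlap of libraries (2-sided exact permutation test, adjusted p = 0.0357 over 10 tests; 4 against 4 cannot go below a raw p of 0.0286). With the median of the list in place of its mean these values were -1.12 and -0.62, and the adjusted p rose to 0.0714 for both. Both calls were also lost without sham replicate 3 (adjusted p = 0.0571). Relative to the proximal list the difference was 0.00 at 1 week (exact adjusted p = 1.00), 0.17 at 2 weeks (0.0357) and 0.16 at 4 weeks (0.0635). The 2-week call was lost without sham replicate 2, 3 or 4 or R2W replicate 2 or 3 (adjusted p up to 0.0714), and with the median of the list its value was -0.04, so no direction is drawn from it. Relative to the distal list, which shares Calb1, Trpv5, Slc8a1 and Trpm6 with the calcium list, it was 0.29 in UUO2, -0.40 in UUO7, and -0.37, -0.46 and -0.43 at 1, 2 and 4 weeks after reversal, each at an exact adjusted p of 0.0357. With the median of the distal list none of these 5 was called and 3 changed sign, to -0.01 in UUO2, 0.37 at 1 week and 0.30 at 2 weeks, so no direction relative to the distal tubule is drawn.

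Some libraries stood apart in ways that touch the members. R2W replicates 2 and 4 and UUO2 replicate 2 were the highest of their groups in Kl, in Vdr and in the means of both the distal markers (5.27, 5.31 and 4.41 on the log2 scale) and the proximal markers (6.66, 6.65 and 7.24). R4W replicate 4 was highest of its group in Kl, Vdr, the distal mean (5.51) and the proximal mean (6.79). Fat-cell markers summed to as much as 121 FPKM in sham and 825 in R4W, and to 14.0 or less in the other groups, and urothelial markers to 46.2 to 151 in R4W beside 1.74 to 39.5 in sham. Their part in the members' values was not tested. With any single sham or R4W library left out, the log2 fold change of Kl in R4W against sham was -0.58 to -0.45.

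Genes with profiles most like each member were found over the 24 libraries by the root mean square (RMS) difference of gene-centred log2 values, among 13168 genes with a symbol. Nearest to Kl were Dmgdh (0.158), Aspa (0.188), Gk (0.190), Sord (0.195) and Pm20d1 (0.196), beside Kl's own RMS spread of 0.743. Dmgdh, an enzyme of choline breakdown, had a sham mean of 54.1 FPKM, 10.7 after 7 days of obstruction and 31.6 at 4 weeks. Nearest to Vdr were Agpat3 (0.132), Tango2 (0.133), Gabarapl1 (0.145), Aifm3 (0.153) and Vwce (0.156), beside 0.425. Cyp27b1, with a spread of 0.902, was nearest to Cox6b2 (0.307), H1fx (0.334), Fbxo2 (0.383), Ndufa4l2 (0.384) and Npdc1 (0.390). For Cyp24a1 the nearest gene, Etv1, was 0.518 away beside a spread of 0.724. It was followed by Errfi1 (0.537), Ctxn3 (0.543), AC079680.2 (0.546) and Cndp2 (0.547). The measure also counts spread between animals of a group, and the SD of log2 Cyp24a1 within groups was 0.194 to 0.605. The larger distances are therefore not read as a distinct course of its group means.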

How the data were processed

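The authors deposited 1 table with 24 value columns and 14785 gene rows. Neither the headers nor the labels name a unit for these deposited values; they were taken as FPKM, because values multiplied by transcript length add up to nearly the same total in each library (1.08 times between extremes). The lowest gene mean in the deposited table is 1.0 FPKM, so genes below that are not analysed here. The submitters' processing notes name FastQC, Bowtie2, RSEM, DESeq2 and mm10, with no versions; their settings are not given in the sources used here. The deposited table also holds the authors' log2 fold changes and adjusted p-values for their own comparisons, whose test and direction are not stated; the direction was read from their slope on the sample columns.

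In R 4.3.3, limma 3.58.1 (functions lmFit and eBayes, trend on) was fitted to log2(FPKM + 1) of the 24 libraries, with a coefficient per group and Benjamini-Hochberg adjustment over all genes. Kl relative to marker lists was compared by exact permutation. In simulated data for UUO7 against sham, 14785 genes were tested; 191 of the 200 changed by 2 on the log2 scale were called, and so were 13 unchanged genes. Coordinates are those of the deposited table and equal GENCODE M21 (GRCm38) for the 4 members. Promoters came from RefSeq (GRCm38.p6), with a match for 3 of the 4 members. Figures were drawn with matplotlib 3.10.9.

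The members and the gene lists were chosen with earlier results of these data known. From each pathway list the text names genes among up to 3 called rises and 3 called falls of greatest log2 fold change in UUO7 and in R4W against sham, plus 12 core genes. Genes of the lists without a row (Fgf23, Klb, Phex, Cyp2r1, Cyp3a11, Cyp3a13, Rxrg, Ifng, Nr4a2 and Calcr) are not analysed here. Alternatives were rescaling by the median ratio, a pseudocount of 0.1 or 10, only genes averaging 5 FPKM or more, a fit restricted to the compared groups or without UUO2, a replicate block, R4W replicate 2 placed in R2W, and leaving out each replicate in turn.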

Additional observations from a re-analysis of the deposited data

Results flagged for a closer look

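In R4W, Kl was 103.8 FPKM in replicate 4, far from the 81.26 to 83.22 of the other 3 libraries. In the same library Vdr was 49.02 FPKM beside 38.59 to 40.25. Cyp27b1 was 3.35 FPKM in R4W replicate 2, the library whose title says 4 weeks and whose treatment label says 2 weeks, beside 1.30 to 1.64 in the others and 2.83 to 3.74 in R2W. These 3 values came from 36 checks of groups of 4, of which chance marks about 1 in 20. Kl in R4W replicate 2 was 83.22 FPKM, beside 57.39 to 90.12 in R2W and 81.26 to 103.8 in the other R4W libraries. Its Cyp24a1 was 10.55 FPKM, beside 5.02 to 9.56 and 3.55 to 9.11. Which of its labels is right was not tested.

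Ncor1, a corepressor of nuclear receptors, lay above all sham libraries (43.3 to 47.2 FPKM) in UUO2 (75.5 to 95.6, log2 change 0.85) and below all of them in UUO7 (32.2 to 36.9) and R1W (29.7 to 38.9). Slc9a3r2, a scaffold of phosphate carriers, lay above all sham libraries (16.1 to 25.3 FPKM) in UUO7 (29.3 to 33.8, log2 change 0.68), R1W, R2W and R4W, and below all of them in UUO2 (6.70 to 15.4). From UUO2 to UUO7 the log2 change was -1.23 for Ncor1 (limma adjusted p = 2.72e-10) and 1.55 for Slc9a3r2 (adjusted p = 7.83e-08), both also called after rescaling (-1.57 and 1.22), while Slc9a3r2 in UUO7 against sham was then not called (0.21, adjusted p = 0.234). In UUO2 the difference cannot be told apart from the library difference of that group.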

How the results depend on the processing

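The 36 results of the members were recomputed in 539 alternative fits, and 516 kept their direction and side of the threshold. Over the removal of 1 library at a time, Kl in R4W against sham was -0.58 to -0.45, Kl in R4W against R1W 0.54 to 0.73, Vdr in R4W against R1W 0.36 to 0.49, Cyp24a1 in R4W against R1W -0.10 to 0.35, and Cyp27b1 in R4W against sham 0.42 to 0.73. Fits on the 2 groups compared gave 0.63 for Kl (limma adjusted p = 0.0580) and 0.43 for Vdr (0.0648) in R4W against R1W, no longer called, and -0.50 for Cyp24a1 in R1W against UUO7 (0.0458), now called. Rescaling gave -0.53 for Vdr (0.00856, now called) and -0.13 for Cyp24a1 (0.718, opposite sign) in UUO7 against UUO2, and 0.42 for Cyp27b1 in R4W against sham (0.0678, no longer called). With a pseudocount of 10 the last was 0.13 (0.138). With R4W replicate 2 placed in R2W it was 0.42 (0.0583), and Cyp24a1 in R4W against R1W was -0.10 (0.856). The cause of these changes was not tested. Cyp27b1 has no value under the minimum mean of 5 FPKM.

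Replicate numbers recur in every group, and the libraries come from 24 mice. At most 2 of the 4 same-numbered pairs of a comparison correlated over 0.1. The highest correlation was 0.451, in R1W against UUO7. The replicate block left all 36 member results on their side of the threshold; Kl in R4W against sham stayed at -0.50 and Cyp27b1 in UUO7 against sham at 2.74 (adjusted p = 5.15e-09).

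Kl relative to the proximal markers, over the removal of 1 library, was -1.09 to -0.92 in UUO2, -0.80 to -0.70 in UUO7, -0.06 to 0.05 in R1W, 0.13 to 0.19 in R2W and 0.12 to 0.19 in R4W; relative to the distal markers it was 0.22 to 0.32, -0.47 to -0.34, -0.44 to -0.32, -0.53 to -0.43 and -0.50 to -0.40. With the median of the list the proximal values were -1.12 and -0.62 in UUO2 and UUO7 and -0.11 and -0.04 at 1 and 2 weeks after reversal, and the distal values -0.01, -0.70, 0.37, 0.30 and -0.04 in the 5 groups. With a pseudocount of 0.1 the distal values were -0.12 in UUO7 and -0.34 in R1W, and with 10 they were -0.04 in UUO2 and the proximal value -0.01 in R1W. Placing R4W replicate 2 in R2W gave a distal R4W value of -0.44 (0.0714). Among 77 results of 42 other named genes, limited after the values were seen to those called or in the core list, 1159 of 1186 alternatives changed no call; Calb1 in R4W and Fgfr1 in UUO7 against sham turned to -0.28 and -0.05 after rescaling, and 16 of the others were lost or gained under it. With few fragments, Cyp27b1 in sham carries the largest counting error of the members.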
